A study of Mus musculus with 24 samples.

Results

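The genes examined were 44 protein-coding genes that carry out DNA replication and mitosis, chosen by symbol from the expression table, in which 21553 genes had counts in all. All 44 had counts in the 24 samples and passed the filter on low counts, and they were arranged by role into origin licensing (11 genes), helicase activation (5), the sliding clamp with its loader and the polymerases (8), deoxynucleotide supply (2), cyclins with Cdk1 (6) and mitosis (12). Poly(A)+ RNA had been sequenced from mouse cells at 4 stages, in wild-type (WT) and slow/slow cells, with 3 replicates of each of the 8 groups. The cells derived from E14 embryonic stem cells (ESCs), and slow/slow cells carry on both alleles of Polr2a, the gene of the largest subunit of RNA polymerase II, the R749H substitution, introduced by gene targeting. ESCs were grown in 2i medium with LIF, neural progenitor cells (NPCs) were collected at day 7 of monolayer differentiation in N2B27 medium, PSA-NCAM+ cells were purified on beads after 10 days of the same culture, and neurons were grown for 14 days after replating the day 7 culture on poly-ornithine and laminin. WT cells were seeded at 10000 and slow/slow cells at 30000 per cm2 for the NPC and PSA-NCAM+ cultures, so at those stages seeding density and genotype cannot be told apart. Neurons came from a replated day 7 culture whose seeding density the labels do not give, so the same limit may hold for neurons. How many slow/slow clones the libraries represent was not given in the sources used here, so a difference between cell lines and an effect of the mutation cannot be told apart.

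DNA replication starts with licensing. In G1 the origin recognition complex, Cdc6 and Cdt1 load the ring of Mcm2 to Mcm7 onto DNA, and in S phase Cdc45 and the GINS complex convert that ring into an active helicase. Pcna is the sliding clamp that the replication factor C (Rfc) subunits place on DNA, Pole and Pola1 are catalytic polymerase subunits, and Rrm1 and Rrm2 form the ribonucleotide reductase that makes deoxynucleotides. E-type cyclins act at the start of S phase, cyclin A2 during S and G2, and B-type cyclins with Cdk1 at entry into mitosis, where Aurora and Polo kinases, the Bub1, Bub1b and Ttk checkpoint kinases, and the motors Kif11, Kif23 and Cenpe act on the spindle. Most of these genes are transcribed periodically, the S phase group mainly under E2F factors and the mitotic group under the DREAM, B-Myb and Foxm1 complexes, and their RNA is low in cells that have left the cycle, as neurons do. In RNA from whole cultures, fewer cycling cells and less RNA per cell cannot be told apart.

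Counts per library totalled 32974432 to 104466886. Levels are given as CPM, counts scaled to 1000000 per library with TMM factors, log2 changes come with their standard error (SE) and with the false discovery rate (FDR) of edgeR's quasi-likelihood test over all 16627 tested genes, and a gene was called when FDR was under 0.05. Positions of genes, matched by Ensembl identifier, are those of GENCODE vM21 on GRCm38, whereas positions of exons and introns are on mm9, the build of the deposited splicing table. The markers of ESCs and of neurons followed the labels. The 5 pluripotency markers measured summed to 5013 to 5734 CPM in ESCs and to 75.5 to 127 CPM in neurons, and the 7 neuronal markers to 3082 to 4280 CPM in neurons against 73.6 to 545 CPM at the other stages. Pluripotency markers still summed to 1887 to 1961 CPM in WT and 1114 to 1232 CPM in slow/slow NPCs. In PSA-NCAM+ cells they summed to 1295 to 1779 and 678 to 705 CPM. The 6 neural progenitor markers summed to less in WT NPCs (443 to 472 CPM) than in WT ESCs (628 to 680 CPM). In slow/slow cells these sums were 619 to 731 CPM in NPCs and 617 to 655 CPM in ESCs. The lower sum in WT NPCs came from Sox2 and Vim, whose means went from 385 to 241 CPM and from 249 to 175 CPM. The means of Pax6 (0.187 to 4.30 CPM), Nes (18.7 to 33.1 CPM), Hes5 (0.105 to 0.361 CPM) and Fabp7 (0.207 to 0.242 CPM) were higher in WT NPCs. The PSA-NCAM+ libraries numbered 1 stood apart from the other two in both genotypes. In the slow/slow library numbered 1 the 7 mesenchymal markers summed to 2027 CPM against 1107 and 1006 CPM in the other slow/slow PSA-NCAM+ libraries, and the 3 WT libraries had 820 to 1115 CPM. Counts of calls for PSA-NCAM+ cells are therefore given with and without the libraries numbered 1, and so are the changes of the genes of the set called there.

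The promoters of these genes were compared first, to show the letters that E2F factors and the mitotic complexes are known to read. RefSeq promoter windows on GRCm38.p6, from 250 bases before to 50 after the start, were held for 35 of the 44 genes, and Aurkb, Ccne2, Gins1, Gins2, Mcm4, Pole, Ccna2, Gins4 and Rfc2 had none. An E2F word (TTTCCCGC, TTTCGCGC, TTTGCCGC or TTTGGCGC), read on both strands, occurred in 11 of the 35 (31.4%), against 2.60% of the 27025 genes with a window. The word of the cell cycle genes homology region, TTTGAA, occurred in 14 of 35 (40%) against 20.2%, and CCAAT in 30 of 35 (85.7%) against 41.1%. The words could overlap on opposite strands and were then counted for the gene once. E2F words fell in 7 of 10 licensing genes and in 0 of 11 mitotic genes, whereas TTTGAA fell in 1 of 10 licensing genes and in 9 of 11 mitotic genes. A match is a description of the letters, not evidence of a bound site. The 5 stretches upstream of the start that follow belong to genes on which the expression results turn, the licensing genes Mcm5 (chr8:75109349-75109508, plus strand) and Mcm6 (chr1:128359706-128359825, minus strand), the mitotic cyclin Ccnb2 (chr9:70421555-70421674, minus strand), and the mitotic genes Mki67 (chr7:135716380-135716529, minus strand) and Top2a (chr11:99024190-99024309, minus strand). They are written 5′ to 3′ on the strand of the gene, and the capitals mark E2F, TTTGAA and CCAAT words on either strand.
Mcm5: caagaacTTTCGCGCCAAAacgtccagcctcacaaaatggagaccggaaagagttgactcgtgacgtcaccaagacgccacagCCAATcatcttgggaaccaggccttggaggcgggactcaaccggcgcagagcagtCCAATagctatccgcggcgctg
Mcm6: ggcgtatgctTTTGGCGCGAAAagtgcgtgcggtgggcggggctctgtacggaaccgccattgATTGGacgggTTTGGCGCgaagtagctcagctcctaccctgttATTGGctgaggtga
Ccnb2: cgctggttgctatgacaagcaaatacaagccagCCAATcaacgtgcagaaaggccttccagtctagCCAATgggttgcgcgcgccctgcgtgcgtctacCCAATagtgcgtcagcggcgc
Mki67: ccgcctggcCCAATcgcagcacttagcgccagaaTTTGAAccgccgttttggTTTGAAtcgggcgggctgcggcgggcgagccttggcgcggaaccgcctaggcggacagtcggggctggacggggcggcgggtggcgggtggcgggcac
Top2a: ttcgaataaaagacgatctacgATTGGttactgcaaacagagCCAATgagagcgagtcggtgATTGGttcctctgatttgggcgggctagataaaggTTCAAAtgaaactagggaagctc
Both licensing promoters hold a pair of overlapping E2F words on opposite strands, read together as 1 run of capitals. The Ccnb2 stretch holds 3 CCAAT words on the same strand, and the Mki67 and Top2a stretches hold TTTGAA or its reverse complement together with CCAAT. The Ccnb2 window also holds TTTGAA, starting at positions -167 and 5 from the start, outside the stretch printed.

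Levels of these genes were lower after differentiation in both genotypes. Taken as the median over the 44 genes of each gene's level relative to its WT ESC mean, the level was 73.6% ± 1.64 (SD, n = 3) in WT NPCs, 57.0% ± 10.9 in WT PSA-NCAM+ cells and 28.4% ± 3.54 in WT neurons. In slow/slow cells it was 115% ± 1.04 in ESCs, 90.6% ± 0.775 in NPCs, 75.5% ± 26.8 at the PSA-NCAM+ stage and 36.6% ± 1.30 in neurons. The 3 WT PSA-NCAM+ libraries stood at 44.6, 65.1 and 61.2%, and the 3 slow/slow ones at 44.5, 90.5 and 91.5%. The library numbered 1 was the lowest in both genotypes and widens the SD.

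**Figure D1:**
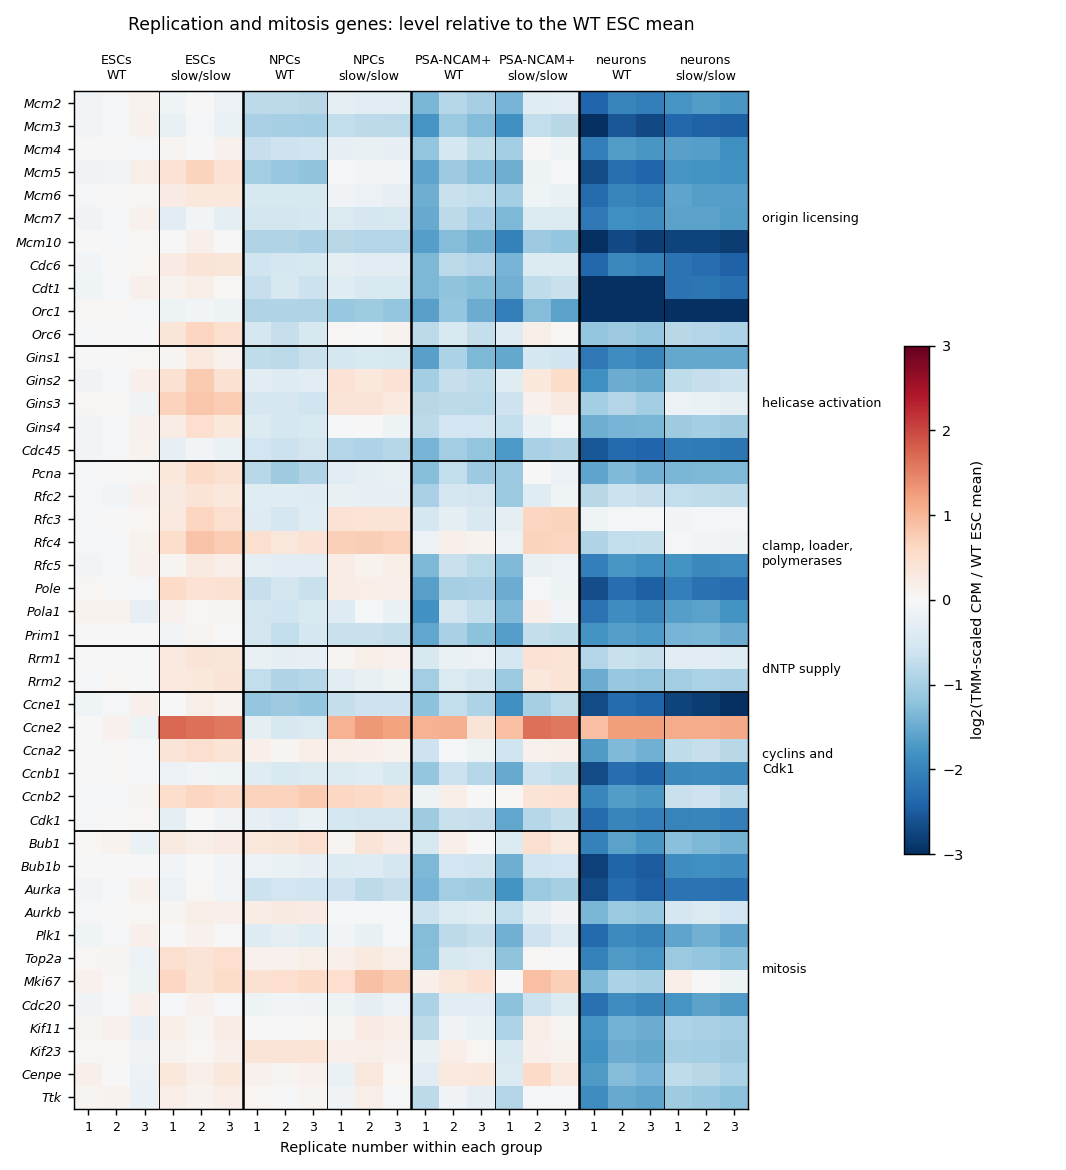
Level of each of the 44 genes (rows, by role) in each of the 24 libraries (columns, by stage and genotype), as log2 of TMM-scaled CPM over the gene's WT ESC mean, with colours ending at 3 in either direction. Neurons are the lowest columns for nearly all genes, with Ccne2 and Rfc3 as exceptions, and the PSA-NCAM+ libraries numbered 1 are lower than the others of their groups for most genes.

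From ESCs to NPCs, 24 of the 44 genes were called lower and 4 higher in WT cells, where 31.6% and 34% of all tested genes were called lower and higher. All 11 licensing genes fell, and of the 12 mitotic genes 1 fell and 2 rose. The largest falls were of Ccne1, cyclin E1, at -1.14 ± 0.17 (SE, FDR 9.91e-06), and of Mcm5, a subunit of the helicase ring, at -1.13 ± 0.22 (SE, FDR 0.00019). The largest rises were of Ccnb2, cyclin B2, at 0.73 ± 0.10 (SE, FDR 1.39e-06), and of Mki67, the proliferation antigen Ki-67, at 0.52 ± 0.16 (SE, FDR 0.00916). In slow/slow cells 20 genes were called lower and 0 higher, where 28.4% and 33.9% of all genes were, with the largest falls in Orc1, the ATPase subunit of the origin recognition complex, at -0.99 ± 0.13 (SE, FDR 1.2e-06), and in Mcm10, which joins the helicase at activation, at -0.91 ± 0.16 (SE, FDR 3.89e-05). Licensing genes stood at a median of 62.7% ± 1.42 of the WT ESC level in WT NPCs and 80.0% ± 2.10 in slow/slow NPCs, while mitotic genes stood at 106% ± 2.13 and 103% ± 9.34.

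From NPCs to PSA-NCAM+ cells, 24 genes were called lower and 1 higher in WT cells, where 19.5% and 21.8% of all genes were. The largest falls were of Top2a, the topoisomerase that untangles chromosomes before division, at -0.83 ± 0.23 (SE, FDR 0.00647), and of Aurkb, the Aurora kinase of the chromosomal passenger complex, at -0.73 ± 0.11 (SE, FDR 3.92e-05), and the gene that rose was Ccne2, cyclin E2, at 1.26 ± 0.18 (SE, FDR 1.89e-05). In slow/slow cells 14 genes were called lower and 0 higher, where 19.8% and 22.5% of all genes were, led by Rfc5, a clamp loader subunit, at -0.66 ± 0.20 (SE, FDR 0.0122), and Plk1, Polo-like kinase 1, at -0.63 ± 0.18 (SE, FDR 0.0101). With the PSA-NCAM+ libraries numbered 1 left out of both genotypes, WT cells had 28 genes lower and 3 higher, and slow/slow cells 11 lower and 6 higher. The shares of all genes called in these comparisons in that fit are not given here, so its counts cannot be set against them. The changes named here were then -0.61 for Top2a, -0.65 for Aurkb and 1.15 for Ccne2 in WT cells and -0.37 for Rfc5 and -0.38 for Plk1 in slow/slow cells, all still called. Leaving out single libraries moved the WT count of 25 to 14, 16 and 14 without the WT NPC libraries 1, 2 and 3 and to 10 without the WT PSA-NCAM+ library 1, and it moved the slow/slow count of 14 to 5, 8 and 8 without the slow/slow NPC libraries 1, 2 and 3. In a fit of the slow/slow NPC and PSA-NCAM+ samples alone, 0 genes were called.

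From NPCs to neurons, the fall covered nearly the whole set. In WT cells 41 of 44 genes were called lower and 2 higher, where 38.9% and 41.4% of all genes were, and in slow/slow cells 43 were lower and 0 higher, where 36.6% and 38.4% were. The largest falls in WT cells were of Orc1, at -2.81 ± 0.14 (SE, FDR 1.34e-13), and of Cdt1, the licensing factor that Geminin inhibits, at -2.51 ± 0.14 (SE, FDR 9.51e-13), and in slow/slow cells of Orc1, at -2.65 ± 0.14 (SE, FDR 7.27e-13), and of Pole, the catalytic subunit of polymerase epsilon, at -2.39 ± 0.24 (SE, FDR 1.95e-08). In WT cells Ccne2 rose by 1.54 ± 0.18 (FDR 1.01e-07) and Rfc3, another clamp loader subunit, by 0.34 ± 0.15 (FDR 0.0494). Of these calls, 41 of 43 in WT and 43 of 43 in slow/slow cells held whichever library was left out, and the pair lost in WT were Rfc2 and Rfc3. For the counts of 0 genes higher in the 3 stage comparisons of slow/slow cells, 0 genes had an unadjusted p under 0.05 in that direction and DESeq2 called 0. The change in slow/slow neurons that missed the threshold was that of Ccne2, at -0.067 ± 0.17 (SE, FDR 0.736).

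No gene of the set was absent from neurons. Relative to their WT ESC means, the 44 genes ranged from 7.60 to 222% in WT neurons, with 38 of them under 50%, and from 7.30 to 217% in slow/slow neurons, with 29 under 50%. Orc1 was the lowest and Ccne2 the highest in both genotypes. Orc1 measured 163, 164 and 154 CPM in WT ESCs, 11.3, 12.7 and 12.5 CPM in WT neurons and 12.1, 12.1 and 10.9 CPM in slow/slow neurons. Next to Orc1 at the low end stood Cdt1 and Mcm10 in WT neurons and Ccne1 and Mcm10 in slow/slow neurons, and next to Ccne2 at the high end stood Rfc3 and Rfc2 in WT and Mki67 and Rfc3 in slow/slow neurons. The source label calls the neuron samples post-mitotic. By length, in the authors' mean RPKM, Pcna was the most abundant of the set in neurons, at 129 RPKM in WT and 151 RPKM in slow/slow cells, and Orc1 the least, at 4.10 and 4.33 RPKM. The median over the 44 genes was 65.9 RPKM in WT ESCs, 20.6 RPKM in WT neurons and 33.3 RPKM in slow/slow neurons.

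**Figure D2:**
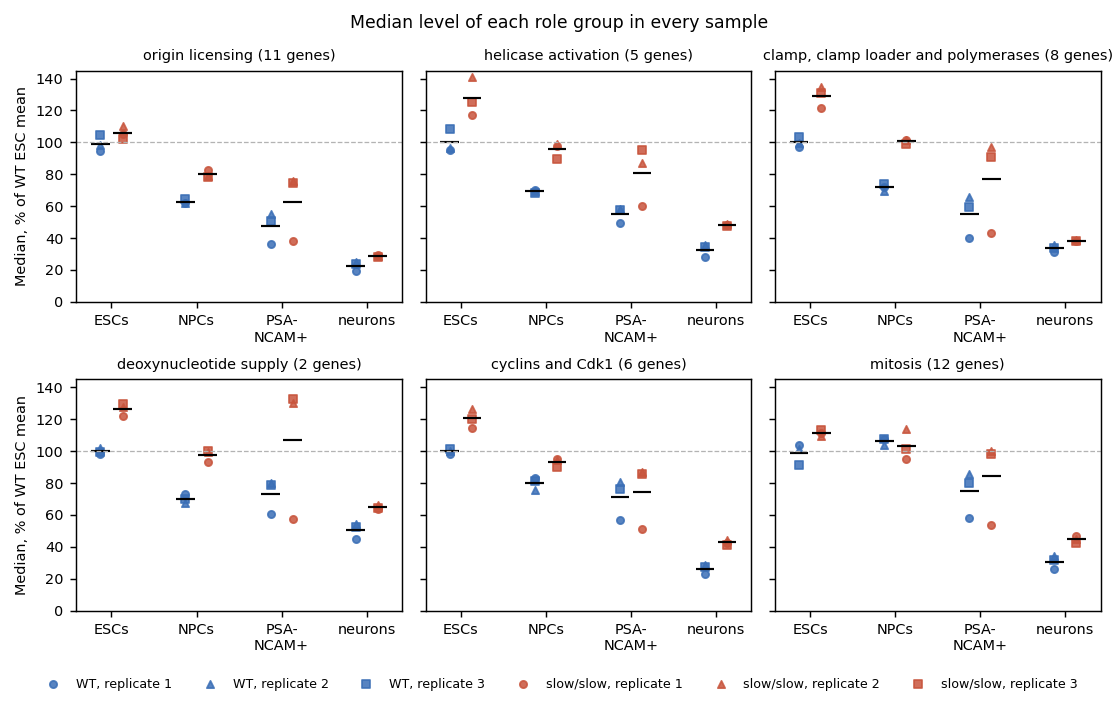
Median level of each role group in every library, in percent of the genes' WT ESC means, by stage, with WT in blue, slow/slow in red, the replicate shown by the marker and the mean of 3 by the black line. The mean of each of the 6 groups is lowest in neurons, where each slow/slow library lies above each WT library. In PSA-NCAM+ cells the libraries numbered 1 lie below the others of their genotype.

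At every stage more of these genes were called higher than lower in slow/slow cells, most of them replication genes before neurons. In neurons 10 of the 12 mitotic genes were called higher. The calls higher took in 4, 5, 6 and 6 of the 6 genes on chromosome 8 at the 4 stages. Of all tested genes of that chromosome, 55.0, 56.6, 56.3 and 55.1% were called higher. In ESCs 10 of 44 genes were called higher and 0 lower, where 18.5% of all genes were called higher and 21.9% lower, and the median change over the 44 was 0.18 against -0.02 over all genes. In NPCs 14 were higher and 1 lower, where 29.3% and 27.4% of all genes were, with a median of 0.22 against 0.01. In PSA-NCAM+ cells 18 were higher and 0 lower, where 28.6% and 28.1% were, with a median of 0.32 against -0.01. The labels state no pairs, but same-numbered PSA-NCAM+ samples of the 2 genotypes deviated together, so the replicate number was also used as a block. Samples numbered 2 and 3 deviated together across numbers too, so their pairing is an assumption. With the block 23 were higher and 3 lower in PSA-NCAM+ cells, where 30.8% and 31.9% of all genes were. In neurons 23 were higher and 0 lower, where 23.4% and 28.4% were, with a median of 0.38 against -0.06. Slow/slow and WT libraries did not overlap, with slow/slow higher, for 23, 27, 4 and 32 of the 44 genes at the 4 stages, where this held for 27.9%, 37.8%, 21.1% and 33.5% of all tested genes. With slow/slow lower it held for 3, 8, 0 and 1 of the set and for 31.9%, 37%, 22% and 42% of all genes. The counts called higher in ESCs, NPCs and PSA-NCAM+ cells, 22.7, 31.8 and 40.9% of the set, thus ranged from near the background to above it, and the 52.3% in neurons was further from it. For the counts of 0 lower without the block, an unadjusted p under 0.05 was reached by 0 genes in ESCs, 0 in PSA-NCAM+ cells and 1 in neurons, and DESeq2 called 0, 0 and 1. A call of at least 2-fold was made for 1, 2, 1 and 2 genes at the 4 stages.

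**Figure D3:**
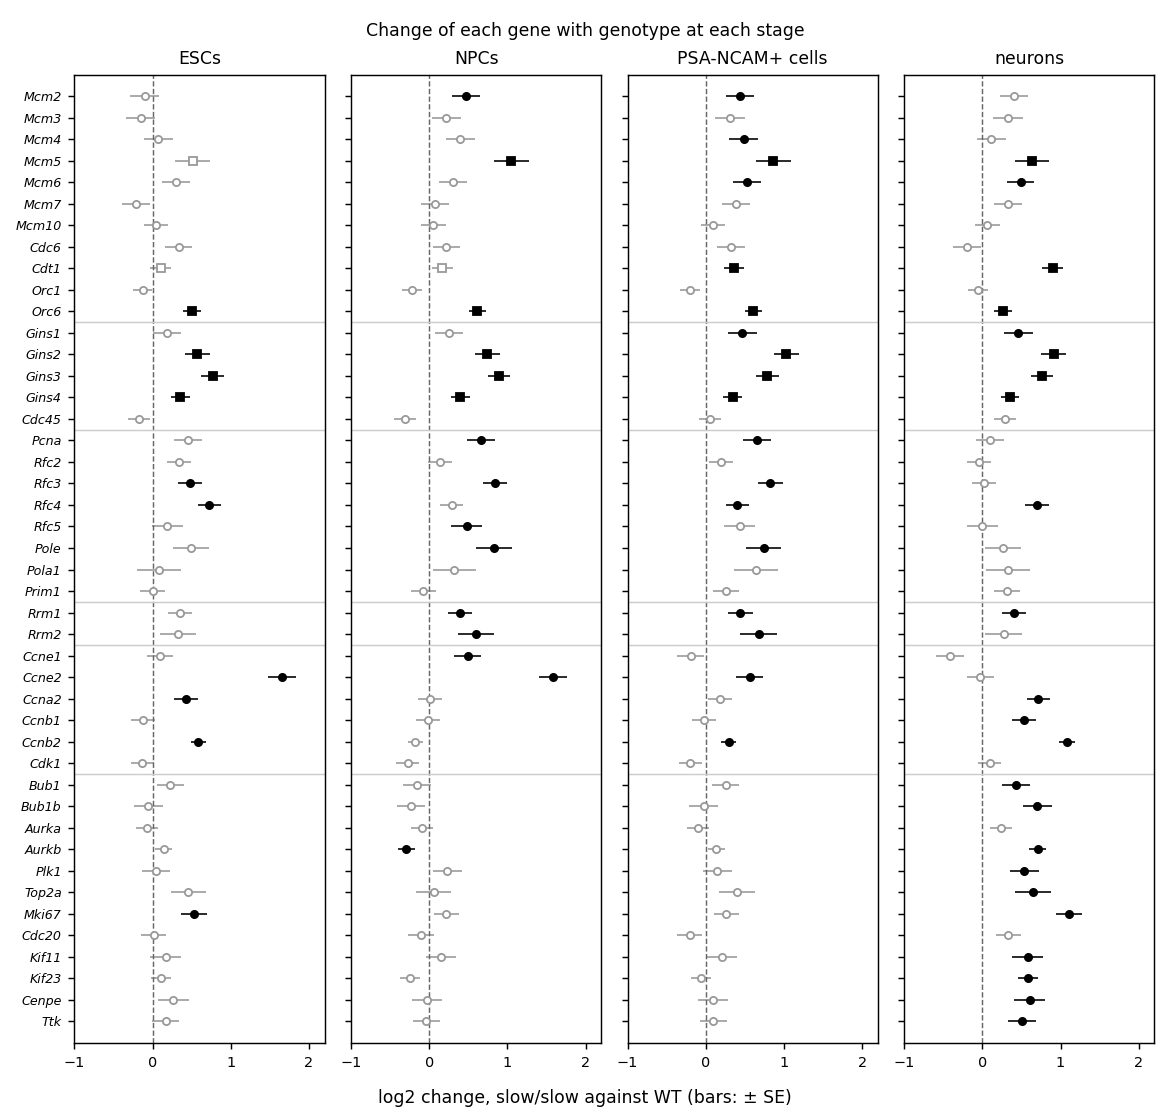
Log2 change of each gene between slow/slow and WT cells (points) with its SE (bars) at each of the 4 stages, filled where FDR was under 0.05 and square for genes on chromosome 8. The points of the mitotic genes, at the foot of each panel, lie around 0 in NPCs and all lie above 0 in neurons.

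By role, the numbers called higher in ESCs, NPCs, PSA-NCAM+ cells and neurons were 1, 3, 6 and 4 of 11 licensing genes, 3, 3, 4 and 4 of 5 helicase activation genes, and 2, 4, 4 and 1 of 8 genes of the clamp, loader and polymerases. They were 0, 2, 2 and 1 of the 2 deoxynucleotide genes, 3, 2, 2 and 3 of the 6 cyclin and Cdk1 genes, and 1, 0, 0 and 10 of 12 mitotic genes. Gins2, Gins3, Gins4 and Orc6, all on chromosome 8, were called higher at all 4 stages. In the fit without the block, 12 genes were called higher at no stage, namely Mcm3, Mcm7, Mcm10, Cdc6, Orc1, Cdc45, Rfc2, Pola1, Prim1, Cdk1, Aurka and Cdc20. With the block, the PSA-NCAM+ calls also took in Pola1 (0.61, FDR 0.000121), Mcm7 (0.36, FDR 0.00271), Rfc5 (0.37, FDR 0.00602), Top2a and Cdc6 as higher, and Orc1 (-0.22, FDR 0.018), Cdc20 (-0.22, FDR 0.0299) and Cdk1 as lower.

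Counts of calls depended on single libraries where spreads were wide. In PSA-NCAM+ cells the count of 18 became 32, all higher, without the libraries numbered 1 of both genotypes, an alternative chosen after the data had been seen. Calls over all genes also rose in that fit, to 34.1% higher and 33.9% lower from 28.6% and 28.1%. Without them the changes were 1.16 for Gins2, 1.07 for Mcm5, 1.04 for Rfc3, 1.00 for Gins3, 0.87 for Ccne2, 0.86 for Rrm2 and 0.82 for Pcna, all still called. The other 11 of the 18 calls also held, at 0.89 for Pole, 0.70 for Orc6, 0.61 for Rrm1, 0.59 for Mcm4, 0.58 for Gins1, 0.57 for Mcm2, 0.54 for Mcm6, 0.53 for Rfc4 and Cdt1, 0.45 for Gins4 and 0.33 for Ccnb2. The 14 genes called in addition were Mki67 (0.41), Ccna2 (0.23), Top2a, Cdc6, Mcm3, Mcm7, Mcm10, Pola1, Prim1, Rfc2, Rfc5, Aurkb, Bub1 and Kif11, the genes after Cdc6 being named after their values had been seen. The count became 8 without the WT library 1, 35 without the slow/slow library 1, and 9 without the slow/slow library 2 or 3, and 1 in a fit of these 6 samples alone. In neurons the count of 23 became 12 without the WT library 1, 13 without the slow/slow library 1 and 15 without the slow/slow library 2, and 11 of the 23 calls were made in every such fit. The calls in neurons that were lost in at least 1 fit were Mcm5, Mcm6, Orc6, Gins1, Gins4, Rrm1, Bub1, Plk1, Top2a, Kif11, Cenpe and Ttk. Orc6 and Mcm6 in neurons depended on most single libraries, Mcm5 on the WT and slow/slow libraries 1 (0.52 and 0.61 without them), Top2a on the same libraries and the slow/slow library 2 (0.54 to 0.63), and Gins4 on the WT library 1 (0.31). In ESCs 6 of 10 calls were made in every such fit, and those of Gins4 (0.29 to 0.35), Rfc3, Ccna2 (0.42 to 0.45) and Mki67 (0.47 without the WT library 3) were not. In NPCs 10 of 15 were, and those of Mcm2, Rfc5, Rrm1, Rrm2 (0.57 to 0.61) and Aurkb (-0.29 to -0.27) were not.

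Among the licensing genes, Mcm5 had the largest change in NPCs and PSA-NCAM+ cells. In WT cells it measured 668, 682 and 809 CPM in ESCs, 347, 328 and 314 CPM in NPCs, 239, 340.2 and 303 CPM in the PSA-NCAM+ fraction and 113, 149.8 and 137 CPM in neurons. Slow/slow levels were 968, 1141 and 973 CPM in ESCs, 688, 679 and 676 CPM in NPCs, 262, 646 and 699 CPM in the PSA-NCAM+ fraction and 211, 206 and 204 CPM in neurons. The groups did not overlap in ESCs, NPCs and neurons, and in PSA-NCAM+ cells the slow/slow library 1 lay among the WT libraries. The change was 0.51 ± 0.22 (SE, FDR 0.0716) in ESCs, 1.05 ± 0.22 (SE, FDR 0.000554) in NPCs, 0.86 ± 0.22 (SE, FDR 0.00267) at the PSA-NCAM+ stage and 0.64 ± 0.22 (SE, FDR 0.022) in neurons, of which that in ESCs missed the threshold. Mcm5 (ENSMUSG00000005410, chr8:75109569-75128439, plus strand) lies on chromosome 8, which is treated further on.

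Mcm2, another ring subunit, measured 619, 635 and 703 CPM in ESCs, 380.2, 382 and 369 CPM in NPCs, 251, 361 and 329 CPM in the PSA-NCAM+ fraction and 125, 166 and 156 CPM in neurons for WT cells. Slow/slow cells measured 599, 644 and 581 CPM in ESCs, 541, 516 and 512 CPM in NPCs, 248, 510.0 and 513 CPM in the PSA-NCAM+ fraction and 193, 204 and 195 CPM in neurons. The genotypes overlapped in ESCs and were apart in NPCs and neurons. Mcm2 was called higher in NPCs, at 0.47 ± 0.18 (SE, FDR 0.033), and in PSA-NCAM+ cells, at 0.44 ± 0.18 (SE, FDR 0.048), and was not called in ESCs, at -0.10 ± 0.18 (SE, FDR 0.696), or in neurons, at 0.41 ± 0.18 (SE, FDR 0.0696). In NPCs the call was lost without any single library of the stage, at changes of 0.46 to 0.50.

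For Mcm6, also of the ring, WT levels were 482, 489 and 499 CPM in ESCs, 349, 354 and 353 CPM in NPCs, 176, 306 and 292 CPM in the PSA-NCAM+ fraction and 99.3, 124 and 117 CPM in neurons. Slow/slow levels were 584, 606 and 615 CPM in ESCs, 453, 433 and 416 CPM in NPCs, 243, 447 and 424 CPM in the PSA-NCAM+ fraction and 165, 157 and 155 CPM in neurons. The slow/slow libraries lay above the WT libraries in ESCs, NPCs and neurons. Mcm6 was called higher in PSA-NCAM+ cells, at 0.52 ± 0.18 (SE, FDR 0.0166), and in neurons, at 0.49 ± 0.18 (SE, FDR 0.0266), while the changes in ESCs and NPCs were 0.30 ± 0.18 (SE, FDR 0.196) and 0.30 ± 0.18 (SE, FDR 0.154).

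Cdc6, the loader of the ring, was not called at any stage without the block. In WT cells it measured 88.6, 94.3 and 97.5 CPM in ESCs, 62.1, 65.2 and 67.4 CPM in NPCs, 36.9, 53.5 and 50.5 CPM in the PSA-NCAM+ fraction and 18.3, 24.3 and 22.8 CPM in neurons. In slow/slow cells the values were 111, 123 and 119 CPM in ESCs, 77, 74.9 and 75.1 CPM in NPCs, 35.8, 70.6 and 69.8 CPM in the PSA-NCAM+ fraction and 20.2, 19.3 and 17.5 CPM in neurons. Slow/slow libraries lay above WT libraries in ESCs and NPCs and overlapped them later. Its changes were 0.33, 0.22, 0.33 and -0.19 from ESCs to neurons. In PSA-NCAM+ cells, where the replicate numbers were taken as pairs, a fit with the number as a block called it higher, at 0.28 (FDR 0.0346). Its change there was 0.43 without the libraries numbered 1.

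Cdt1 (ENSMUSG00000006585, chr8:122568015-122573554, plus strand) behaved differently by stage. In ESCs it measured 315, 333 and 379 CPM in WT and 365, 388 and 349.9 CPM in slow/slow cells, and in NPCs 213, 246 and 220.1 CPM and 266, 248 and 249 CPM, without a call at either stage. In neurons it measured 35.7, 42.6 and 40.5 CPM in WT and 74.1, 75.9 and 71.9 CPM in slow/slow cells. The neuron groups were far apart, and the change was 0.90 ± 0.13 (SE, FDR 1.17e-05). In PSA-NCAM+ cells it was 0.36 ± 0.13 (SE, FDR 0.0237). Its locus is shared with Gm20388, annotated on the same strand, and its counts are uncertain for that reason.

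The remaining licensing genes were Mcm3, Mcm4, Mcm7, Mcm10, Orc1 and Orc6. Orc6 (ENSMUSG00000031697, chr8:85299632-85308278, plus strand), the smallest subunit of the origin recognition complex, was higher at every stage, by 0.50 ± 0.11 (SE, FDR 0.000989) in ESCs, 0.61 ± 0.11 (SE, FDR 9.21e-05) in NPCs, 0.61 ± 0.11 (SE, FDR 9.12e-05) at the PSA-NCAM+ stage and 0.26 ± 0.11 (SE, FDR 0.0493) in neurons. Mcm4 was called in PSA-NCAM+ cells, at 0.48 ± 0.18 (SE, FDR 0.0312). Mcm3, Mcm7, Mcm10 and Orc1 were called at no stage without the block, with changes between -0.22 (Mcm7, ESCs) and 0.39 (Mcm7, PSA-NCAM+ cells).

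Of the 5 helicase activation genes, the 3 GINS genes Gins2, Gins3 and Gins4 were called higher at every stage. Gins3 (ENSMUSG00000031669, chr8:95633453-95645060, plus strand) measured 22.7, 22.6 and 20.4 CPM in ESCs, 15.3, 15.5 and 14.4 CPM in NPCs, 12.3, 12.7 and 12.6 CPM in the PSA-NCAM+ fraction and 10.8, 11.9 and 10.5 CPM in neurons in WT cells. The slow/slow libraries gave 35.3, 39.2 and 37.2 CPM in ESCs, 28.5, 28.6 and 26.8 CPM in NPCs, 14.2, 24 and 26.5 CPM in the PSA-NCAM+ fraction and 19.3, 19 and 18.1 CPM in neurons. No slow/slow library overlapped a WT library at any stage. The changes were 0.77 ± 0.14 (SE, FDR 0.000231), 0.89 ± 0.14 (SE, FDR 3.01e-05), 0.79 ± 0.14 (SE, FDR 0.000101) and 0.77 ± 0.14 (SE, FDR 0.000156) from ESCs to neurons.

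Gins2 (ENSMUSG00000031821, chr8:120578633-120589304, minus strand), another GINS subunit, measured 58.7, 61.1 and 71 CPM in ESCs, 50.7, 48.5 and 50.9 CPM in NPCs, 31.3, 39.4 and 37.5 CPM in the PSA-NCAM+ fraction and 17.9, 22.8 and 21.8 CPM in neurons in WT cells. Slow/slow samples had 86.7, 110.4 and 86.7 CPM in ESCs, 85.8, 79.5 and 86.3 CPM in NPCs, 49.2, 78.9 and 92.5 CPM in the PSA-NCAM+ fraction and 37.5, 39.6 and 40.5 CPM in neurons. The groups did not overlap at any stage. Its changes were 0.57 ± 0.16 (SE, FDR 0.00708), 0.75 ± 0.16 (SE, FDR 0.000575), 1.03 ± 0.16 (SE, FDR 2.05e-05) and 0.91 ± 0.16 (SE, FDR 9.38e-05), and the opposite strand of its locus carries Gse1 and Gm20388.

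Gins4 (ENSMUSG00000031546, chr8:23226616-23237659, minus strand) was higher by 0.36, 0.40, 0.34 and 0.36 at the 4 stages, each time called. Gins1, the GINS subunit not on chromosome 8, was called in PSA-NCAM+ cells, at 0.47 ± 0.18 (SE, FDR 0.0314), and in neurons, at 0.46 ± 0.18 (SE, FDR 0.0389). Cdc45 was called at no stage, and its change was -0.18 in ESCs, -0.30 in NPCs, 0.049 at the PSA-NCAM+ stage and 0.29 in neurons.

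The clamp Pcna rose in slow/slow NPCs and PSA-NCAM+ cells. WT levels were 503, 519.5 and 530.1 CPM in ESCs, 289.9, 249 and 275 CPM in NPCs, 214, 308 and 245 CPM in the PSA-NCAM+ fraction and 174, 206 and 191 CPM in neurons. Slow/slow levels were 643, 771 and 709 CPM in ESCs, 419, 425 and 444 CPM in NPCs, 239, 511 and 461 CPM in the PSA-NCAM+ fraction and 199.6, 202 and 207 CPM in neurons. In ESCs and NPCs the slow/slow libraries lay above all WT libraries, and in neurons the groups overlapped. The changes were 0.66 ± 0.18 (SE, FDR 0.00381) in NPCs and 0.66 ± 0.18 (SE, FDR 0.00395) in PSA-NCAM+ cells, which passed the threshold, and 0.45 ± 0.18 (SE, FDR 0.05002) in ESCs and 0.093 ± 0.18 (SE, FDR 0.686) in neurons, which did not.

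Of the clamp loader, Rfc3 measured 48.9, 51.2 and 53.7 CPM in ESCs, 38.9, 36.3 and 39.9 CPM in NPCs, 36.2, 41.7 and 37.3 CPM in the PSA-NCAM+ fraction and 46.8, 49.99 and 48.9 CPM in neurons in WT cells. The values in slow/slow cells were 62.9, 80.1 and 71.3 CPM in ESCs, 69.7, 68.3 and 68.7 CPM in NPCs, 42.3, 79.95 and 82 CPM in the PSA-NCAM+ fraction and 48.8, 49.4 and 49.1 CPM in neurons. The groups were apart in ESCs, NPCs and PSA-NCAM+ cells and overlapped in neurons. Rfc3 rose by 0.48 ± 0.15 (SE, FDR 0.0176) in ESCs, 0.84 ± 0.16 (SE, FDR 0.000128) in NPCs and 0.83 ± 0.15 (SE, FDR 0.000145) at the PSA-NCAM+ stage, and its change in neurons was 0.017 ± 0.15 (SE, FDR 0.94). Rfc4 measured 43.9, 43.5 and 49 CPM in WT and 65.8, 82.7 and 76.7 CPM in slow/slow ESCs. It was called higher in ESCs, at 0.72 ± 0.15 (SE, FDR 0.000629), PSA-NCAM+ cells, at 0.40 ± 0.15 (SE, FDR 0.0257), and neurons, at 0.70 ± 0.15 (SE, FDR 0.000599). Rfc5 was called higher in NPCs, at 0.48 ± 0.20 (SE, FDR 0.0436). Rfc2 was called at no stage, with changes of 0.34, 0.14, 0.19 and -0.04 from ESCs to neurons. Rfc4 and Rfc5 share their loci with Eif4a2 and Wsb2 on the other strand, and the strand setting of the counting was not given in the sources used here.

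Pole rose in slow/slow NPCs, at 0.83 ± 0.23 (SE, FDR 0.00459), and PSA-NCAM+ cells, at 0.74 ± 0.23 (SE, FDR 0.00981). In NPCs it measured 102, 112 and 103 CPM in WT and 191, 189 and 181 CPM in slow/slow cells, and in neurons 26, 33.4 and 29.7 CPM and 39.2, 34.6 and 33.3 CPM. Pola1 and Prim1, of the polymerase that lays down primers, were called at no stage without the block. From ESCs to neurons the changes of Pola1 were 0.08, 0.32, 0.64 and 0.33, and those of Prim1 0.0014, -0.074, 0.26 and 0.31.

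Both subunits of ribonucleotide reductase rose in NPCs and PSA-NCAM+ cells. Rrm2, the subunit that limits the activity in S phase, measured 304, 318 and 311 CPM in ESCs, 188, 166 and 172 CPM in NPCs, 152, 229 and 212 CPM in the PSA-NCAM+ fraction and 111, 142 and 136 CPM in neurons in WT cells. The corresponding slow/slow levels were 379, 386 and 404 CPM in ESCs, 249, 266 and 279 CPM in NPCs, 144, 389.9 and 411 CPM in the PSA-NCAM+ fraction and 152, 161 and 158 CPM in neurons. The groups overlapped in PSA-NCAM+ cells alone, where the slow/slow library 1 was the lowest of all 6. Rrm2 changed by 0.60 ± 0.23 (SE, FDR 0.0354) in NPCs and 0.67 ± 0.23 (SE, FDR 0.0191) at the PSA-NCAM+ stage, and its changes of 0.32 ± 0.23 (SE, FDR 0.286) in ESCs and 0.27 ± 0.23 (SE, FDR 0.341) in neurons missed the threshold. Rrm1 was called in NPCs (0.39), PSA-NCAM+ cells (0.44) and neurons (0.41).

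The E-type cyclins differed from each other. Ccne2 (ENSMUSG00000028212, chr4:11191351-11204779, plus strand) was low in WT ESCs and NPCs. WT cells measured 8.86, 9.58 and 7.92 CPM in ESCs, 7.22, 6.34 and 6.49 CPM in NPCs, 18.1, 18.3 and 11.5 CPM in the PSA-NCAM+ fraction and 16.5, 20.9 and 21 CPM in neurons. In slow/slow cells Ccne2 measured 28.9, 27.5 and 26.3 CPM in ESCs, 18, 21.6 and 20.4 CPM in NPCs, 16.5, 27.7 and 26.4 CPM in the PSA-NCAM+ fraction and 19.1, 19 and 19.2 CPM in neurons. The groups were far apart in ESCs and NPCs and overlapped in PSA-NCAM+ cells and in neurons, where all 6 libraries lay between 16.5 and 21.0 CPM. Ccne2 was the most changed gene of the set in ESCs, at 1.65 ± 0.18 (SE, FDR 4.39e-07), or 3.14-fold, and in NPCs, at 1.58 ± 0.18 (SE, FDR 4.82e-07), and it rose by 0.56 ± 0.17 (SE, FDR 0.00933) in PSA-NCAM+ cells. Its change in neurons was -0.028 ± 0.17 (SE, FDR 0.906). Its locus overlaps Ints8 on the other strand.

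Ccne1 measured 196, 209 and 236 CPM in ESCs, 96.1, 99.8 and 95.5 CPM in NPCs, 90.4, 128 and 113 CPM in the PSA-NCAM+ fraction and 33.3, 43.3 and 40.3 CPM in neurons in WT cells. In slow/slow cells it measured 211, 243 and 230.0 CPM in ESCs, 131, 139 and 139 CPM in NPCs, 59.98, 107 and 122 CPM in the PSA-NCAM+ fraction and 31.1, 29.5 and 27.1 CPM in neurons. Slow/slow libraries lay above WT libraries in NPCs and below them in neurons. The change was 0.49 ± 0.17 (SE, FDR 0.0206) in NPCs, which passed the threshold, and -0.41 ± 0.17 (SE, FDR 0.0532) in neurons, 0.094 ± 0.17 (SE, FDR 0.701) in ESCs and -0.19 ± 0.17 (SE, FDR 0.35) in PSA-NCAM+ cells, which did not.

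Ccna2 measured 212, 214 and 205 CPM in ESCs, 235, 223 and 242 CPM in NPCs, 138, 205 and 190.0 CPM in the PSA-NCAM+ fraction and 64.3, 84.7 and 78.1 CPM in neurons in WT cells. Slow/slow levels were 275, 293 and 281 CPM in ESCs, 241, 236 and 228 CPM in NPCs, 140.1, 231 and 233 CPM in the PSA-NCAM+ fraction and 123, 131 and 119 CPM in neurons. The genotypes were apart in ESCs and in neurons and overlapped in NPCs. Ccna2 rose by 0.43 ± 0.15 (SE, FDR 0.0286) in ESCs and 0.72 ± 0.15 (SE, FDR 0.000507) in neurons, while its changes in NPCs and PSA-NCAM+ cells were 0.0082 and 0.18. The value in NPCs had the opposite sign under DESeq2's (-0.02) and upper-quartile (-0.03) scaling.

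Ccnb1 measured 549, 558 and 537 CPM in ESCs, 429, 402 and 416 CPM in NPCs, 247, 348 and 302 CPM in the PSA-NCAM+ fraction and 85.6, 112 and 103 CPM in neurons in WT cells. The slow/slow libraries gave 488, 517 and 502 CPM in ESCs, 413, 424 and 396 CPM in NPCs, 193, 352 and 334 CPM in the PSA-NCAM+ fraction and 144, 145 and 144 CPM in neurons. In neurons every slow/slow library lay above every WT library, and there Ccnb1 rose by 0.53 ± 0.15 (SE, FDR 0.00697). At the earlier stages its changes were -0.13, -0.016 and -0.028, with no call, and in PSA-NCAM+ cells the value turned to 0.08 without the libraries numbered 1.

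Ccnb2 differed by stage. WT levels were 105, 106 and 115 CPM in ESCs, 176, 176 and 188 CPM in NPCs, 98.6, 122 and 110.3 CPM in the PSA-NCAM+ fraction and 28.1, 34.3 and 32.6 CPM in neurons. Slow/slow levels were 157, 169.6 and 163 CPM in ESCs, 166, 163 and 149.6 CPM in NPCs, 114, 145 and 147 CPM in the PSA-NCAM+ fraction and 67.9, 70.2 and 63.2 CPM in neurons. Slow/slow libraries lay above WT libraries in ESCs and neurons and below them in NPCs. Ccnb2 rose by 0.59 ± 0.10 (SE, FDR 5.91e-05) in ESCs, 0.29 ± 0.10 (SE, FDR 0.0134) in PSA-NCAM+ cells and 1.08 ± 0.10 (SE, FDR 1.99e-08) in neurons, and its change in NPCs was -0.18 ± 0.10 (SE, FDR 0.12).

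Cdk1, the kinase partner of the B-type cyclins, was called at no stage without the block. WT levels were 298, 306 and 324 CPM in ESCs, 261, 243 and 268 CPM in NPCs, 148, 194 and 191 CPM in the PSA-NCAM+ fraction and 62.7, 77.8 and 74.4 CPM in neurons. Slow/slow levels were 251, 308 and 287 CPM in ESCs, 215, 212 and 213 CPM in NPCs, 105, 171 and 188 CPM in the PSA-NCAM+ fraction and 77.3, 78.3 and 74.2 CPM in neurons. The changes of -0.13 ± 0.15 (SE, FDR 0.507), -0.27 ± 0.15 (SE, FDR 0.123), -0.20 ± 0.15 (SE, FDR 0.256) and 0.10 ± 0.15 (SE, FDR 0.608) did not pass the threshold, although the 3 slow/slow NPC libraries lay below the WT ones. The fit with the replicate block called Cdk1 lower in PSA-NCAM+ cells, at -0.23 (FDR 0.0352), and without the slow/slow library 1 the change was 0.04.

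Most mitotic genes were higher in slow/slow neurons. Of 12, 10 were called higher in slow/slow neurons, and in all 12 each slow/slow library lay above each WT library, as in 33.5% of all genes. Mki67 measured 164, 154 and 135 CPM in ESCs, 209, 214 and 226 CPM in NPCs, 169, 191 and 208 CPM in the PSA-NCAM+ fraction and 60.8, 78 and 76 CPM in neurons in WT cells. Slow/slow samples had 232, 200.0 and 223 CPM in ESCs, 216, 280.1 and 259.6 CPM in NPCs, 153, 282 and 247 CPM in the PSA-NCAM+ fraction and 174, 154 and 136 CPM in neurons. It rose by 1.11 ± 0.17 (SE, FDR 1.34e-05) in neurons, the largest change of the set at that stage, and by 0.53 ± 0.16 (SE, FDR 0.0138) in ESCs, while its changes in NPCs and PSA-NCAM+ cells were 0.22 ± 0.16 (SE, FDR 0.263) and 0.26 ± 0.16 (SE, FDR 0.178).

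Top2a measured 796, 807 and 675 CPM in ESCs, 835, 835 and 858 CPM in NPCs, 313, 546 and 561 CPM in the PSA-NCAM+ fraction and 187, 235 and 222 CPM in neurons in WT cells. The values in slow/slow cells were 1065, 994 and 1072 CPM in ESCs, 845, 924 and 859.8 CPM in NPCs, 327, 779 and 766 CPM in the PSA-NCAM+ fraction and 349, 339 and 319 CPM in neurons. The groups did not overlap in ESCs and neurons. Top2a rose by 0.65 ± 0.23 (SE, FDR 0.0223) in neurons, and its changes of 0.46 ± 0.23 (SE, FDR 0.115), 0.056 ± 0.23 (SE, FDR 0.851) and 0.40 ± 0.23 (SE, FDR 0.14) at the earlier stages missed the threshold. With the replicate block its change in PSA-NCAM+ cells was 0.34 (FDR 0.00953), and without the libraries numbered 1 it was called at 0.48.

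Aurkb was the gene called lower in slow/slow NPCs, with 92.4, 94.8 and 94 CPM in WT and 76.3, 75.9 and 77.7 CPM in slow/slow cells, a change of -0.29 ± 0.11 (SE, FDR 0.0295). In neurons it measured 30.6, 36.3 and 35.3 CPM in WT and 55.5, 58.2 and 53.2 CPM in slow/slow cells and rose by 0.71 ± 0.11 (SE, FDR 2.29e-05). The groups were apart at both stages, in opposite directions. At the earlier stages the changes of the 12 mitotic genes lay between -0.074 and 0.53 in ESCs, between -0.29 and 0.23 in NPCs and between -0.21 and 0.40 in the PSA-NCAM+ fraction. Bub1b, the checkpoint kinase-like protein BubR1, measured 49.4, 64.4 and 61.1 CPM in WT and 94.1, 96.1 and 94.3 CPM in slow/slow neurons and rose by 0.70 ± 0.18 (SE, FDR 0.0033). Kif23, a kinesin of the central spindle, rose by 0.58, Cenpe, the kinetochore kinesin, by 0.61, Kif11, which separates spindle poles, by 0.58, Plk1 by 0.54, Ttk by 0.50 and Bub1 by 0.43 in neurons. Aurka and Cdc20, the activator of the anaphase-promoting complex, missed the threshold there at 0.24 ± 0.14 (SE, FDR 0.167) and 0.33 ± 0.16 (SE, FDR 0.0946).

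Markers of cell type moved with genotype in the same neuron samples. The 6 neural progenitor markers measured summed to 1874 to 2165 CPM in WT and 2240 to 2558 CPM in slow/slow neurons, and 4 of them were called higher. The 7 neuronal markers summed to 3937 to 4280 CPM in WT and 3082 to 3267 CPM in slow/slow neurons, and 4 were called lower. The 7 mesenchymal markers summed to 357 to 478 CPM and 601 to 638 CPM, with 4 higher and 2 lower. Of the glial markers 3 were higher and 5 lower among 9 tested, with sums of 236 to 296 CPM in WT and 139 to 153 CPM in slow/slow neurons, and of the 6 endodermal markers, which summed to 49.6 to 57.7 and 43.9 to 66.4 CPM, 5 were higher and 1 lower. The pluripotency markers, at 97.6 to 127 and 75.5 to 79.1 CPM, had 3 higher and 1 lower. None of the measured markers was at 0 in all 3 neuron libraries of a genotype. Afp was at 0 CPM in the WT library 3 and S100b at 0 CPM in the slow/slow library 3. In NPCs the progenitor markers summed to 443 to 472 CPM in WT and 619 to 731 CPM in slow/slow cells and the neuronal markers to 94.6 to 102 and 251 to 293 CPM, and in PSA-NCAM+ cells these sums were 708 to 922 against 1500 to 1737 CPM and 73.6 to 99.2 against 212 to 545 CPM. Of the 5 pluripotency markers, 4 were called lower in slow/slow NPCs and 3 in slow/slow PSA-NCAM+ cells, and 0 were called higher at either stage. The part of other cell types in the levels of the replication and mitosis genes was not tested.

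The effect of genotype was compared between successive stages by an interaction term. Between NPCs and neurons the effect of genotype changed upward for 9 genes and downward for 3, where 24.7% and 30.4% of all genes did. The upward differences were led by Ccnb2, at 1.26 ± 0.14 (SE, FDR 2.56e-07), Aurkb, at 1.00 ± 0.16 (SE, FDR 2.18e-05), and Bub1b, at 0.94 ± 0.26 (SE, FDR 0.00466), and the downward ones were Ccne2, at -1.61 ± 0.25 (SE, FDR 1.84e-05), Ccne1, at -0.91 ± 0.25 (SE, FDR 0.004), and Rfc3, at -0.83 ± 0.22 (SE, FDR 0.00324). Ccnb1, Cdc45, Ccna2, Cdt1, Kif23 and Mki67 were the other genes with an upward difference, between 0.55 and 0.89. Without any 1 library, all but Ccnb1 were still called. By role, 4 of 12 mitotic and 3 of 6 cyclin and Cdk1 genes had an upward difference, against 1 of 11 licensing genes. Under upper-quartile scaling 17 genes had an upward and 3 a downward difference, and the split of all genes called moved from 4112 upward and 5049 downward to 5084 and 3786. The scaling moved the median of all genes in this contrast from -0.09 to 0.10, and the median of the 44 genes relative to it was 0.28 under both. For the comparison of genotypes in neurons the same scaling moved the split of all genes from 3898 higher and 4728 lower to 5056 and 3486 and gave 30 of the 44 genes higher and 0 lower, with a median relative to all genes of 0.44 under both scalings.

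Between ESCs and NPCs the effect of genotype changed upward for 0 genes and downward for 2, where 13.6% and 11% of all genes did. For the 0 upward differences, 1 gene had an unadjusted p under 0.05 and DESeq2 called 0. The downward ones were Ccnb2, at -0.76 ± 0.13 (SE, FDR 0.000362), and Aurkb, at -0.43 ± 0.16 (SE, FDR 0.048). Aurkb was lost without any single ESC or NPC library except the WT ESC library 3, at -0.47 to -0.41. The stage and genotype comparisons share samples, so their values are set side by side and are not independent of each other.

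Of the 44 genes, 6 lie on chromosome 8, where the median over all tested genes was higher in slow/slow cells. The median change over the 865 tested genes of that chromosome was 0.45 in ESCs, 0.49 in NPCs, 0.46 at the PSA-NCAM+ stage and 0.44 in neurons. These 6 genes, Mcm5, Cdt1, Orc6, Gins2, Gins3 and Gins4, were called higher in 4, 5, 6 and 6 cases at the 4 stages, where 55.0, 56.6, 56.3 and 55.1% of all genes of the chromosome were, with median changes of 0.51, 0.68, 0.70 and 0.70. Relative to the chromosome median they lay 0.06, 0.19, 0.24 and 0.26 higher. With the chromosome median as an offset for the slow/slow samples, Cdt1 was called lower in ESCs, at -0.34, and in NPCs, at -0.32, and the changes of Gins4 at all stages and of Orc6 in neurons turned to between -0.17 and -0.08. How far the difference of the whole chromosome enters the values of these 6 genes was not tested otherwise. The 38 genes on other chromosomes had 6, 9, 12 and 17 called higher and 0, 1, 0 and 0 lower, with median changes of 0.17, 0.14, 0.26 and 0.33. Their higher calls were 15.8, 23.7, 31.6 and 44.7%, against 18.5, 29.3, 28.6 and 23.4% of all genes. The share was thus below that of all genes in ESCs and NPCs, near it in PSA-NCAM+ cells and above it in neurons. With the offset for every chromosome, the set as a whole had 7, 10, 12 and 25 genes higher and 1, 1, 0 and 0 lower. The share of all genes called in that fit is not given here. The 5 tested genes of the Y chromosome had median changes of -6.13, -7.30, -3.01 and -5.08. Over the 639 tested genes of chromosome 15 the median change was -0.60, -0.57, -0.56 and -0.08 at the 4 stages, with 64.5, 60.4, 61.7 and 29.4% called lower.

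**Figure D4:**
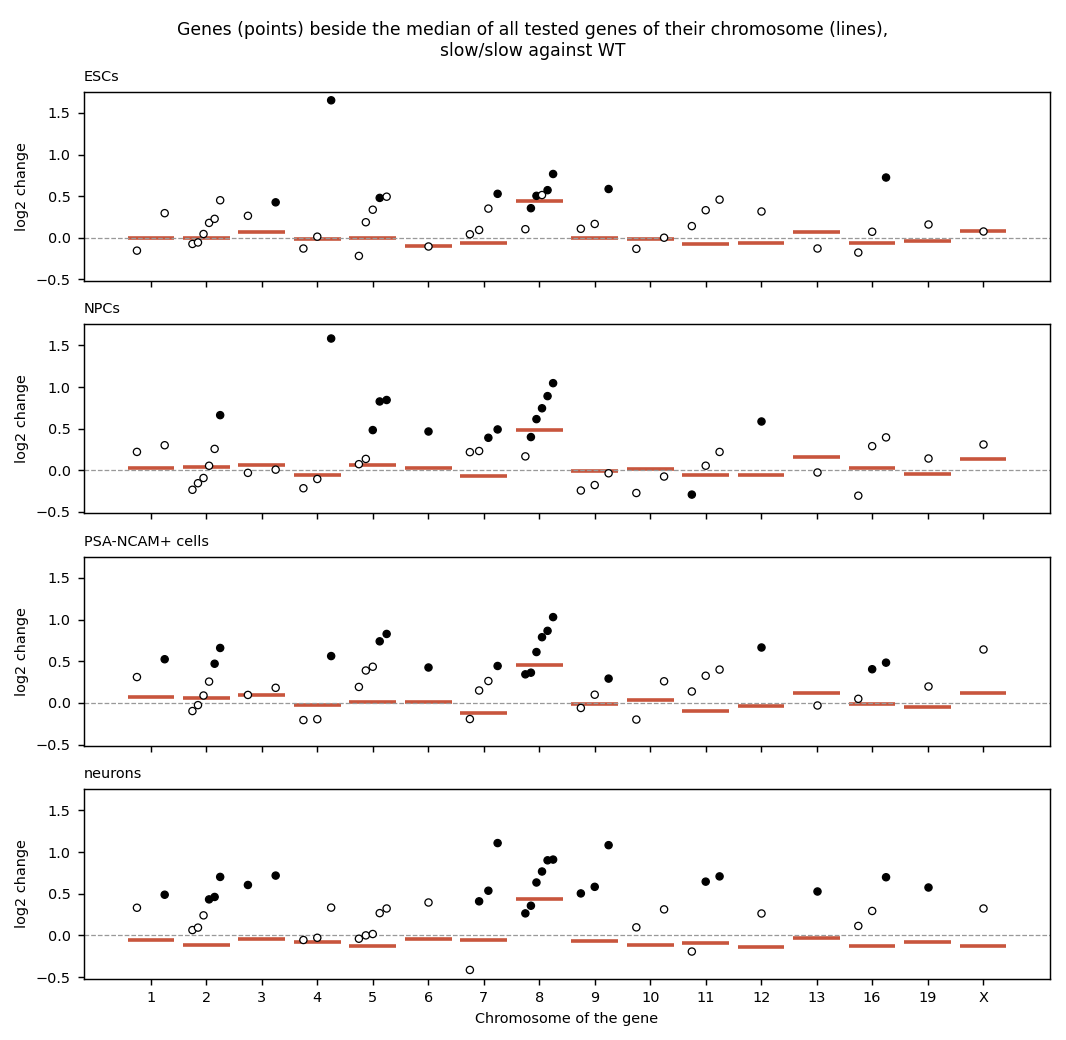
Log2 change between slow/slow and WT cells of each gene (points, filled where FDR was under 0.05) by chromosome at each stage, with the median change of all tested genes of that chromosome as a red line. The line for chromosome 8 lies at 0.44 to 0.49 in the 4 panels, above the line of every other chromosome shown.

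Gene length was set beside the change, since the mutation bears on elongation. The genes spanned 4.15 kb (Pcna) to 327 kb (Pola1), with a median of 15.1 kb. Across the 44 genes, which share their libraries and are not independent, the correlation of the change with log2 of the span was -0.10 in ESCs, -0.17 in NPCs, -0.05 at the PSA-NCAM+ stage and 0.05 in neurons (Pearson's r, n = 44), and Spearman's rho was -0.09, -0.27, -0.15 and 0.05.

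Few exons and introns of these genes met a rule of over 10 percentage points in percent spliced in (PSI) with no overlap between replicates, a description with no test. Of 113, 111, 114 and 106 exons measured in 31 of the genes at the 4 stages, 0, 3, 0 and 1 met the rule, where 1.15%, 3.34%, 1.29% and 3.95% of all exons did. Of 505, 518, 518 and 505 introns in 42 genes, 0, 2, 1 and 0 met it, where 0.183%, 0.569%, 0.192% and 0.442% of all introns did. Exons of Kif23, Orc6 and Pole in NPCs, the same Kif23 exon in neurons and introns of Pole were those counted, named after their values had been seen.

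The Kif23 cassette exon of 312 nucleotides (chr9:61771712-61772023, mm9) was included in NPCs at 77.2, 73.8 and 76.8% in WT and 49.5, 53.2 and 53.5% in slow/slow cells. In neurons it was included at 49.4, 48.1 and 53.6% in WT and 68.9, 67.4 and 71.3% in slow/slow cells. The genotypes were apart in both stages, in opposite directions. In ESCs the means were 36.0% and 39.3%, and in PSA-NCAM+ cells 65.6% and 58.4%, with the slow/slow library 1 at 71.8% and the other slow/slow libraries at 52.9 and 50.5%. At least 173 reads lay behind each neuron value and 511 behind each NPC value.

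The Orc6 exon of 164 nucleotides (chr8:87826695-87826858, mm9) stood at 74.4% ± 0.212 (SD, n = 3) in the WT NPC libraries and at 89.5% ± 1.41 in the slow/slow ones, and in neurons it stood at 94.5% ± 1.24 and 86.7% ± 3.39, a difference under the limit. The Pole exon of 111 nucleotides (chr5:110723911-110724021, mm9) was included at 77.8, 64.6 and 67.3% in WT and 89.0, 98.7 and 96.4% in slow/slow NPCs. Retention of the introns beside it was lower in slow/slow NPCs. The intron at chr5:110724022-110724246 stood at 33.8% ± 7.06 in WT and 15.6% ± 3.02 in slow/slow cells, and that at chr5:110723636-110723910 at 19.5% ± 1.31 and 3.69% ± 1.56. In PSA-NCAM+ cells the first of these stood at 29.5% ± 9.01 and 13.3% ± 7.39. As few as 33 reads lay behind the intron values in NPCs and 28 in PSA-NCAM+ cells, against 511 behind the Kif23 exon in NPCs.

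**Figure D5:**
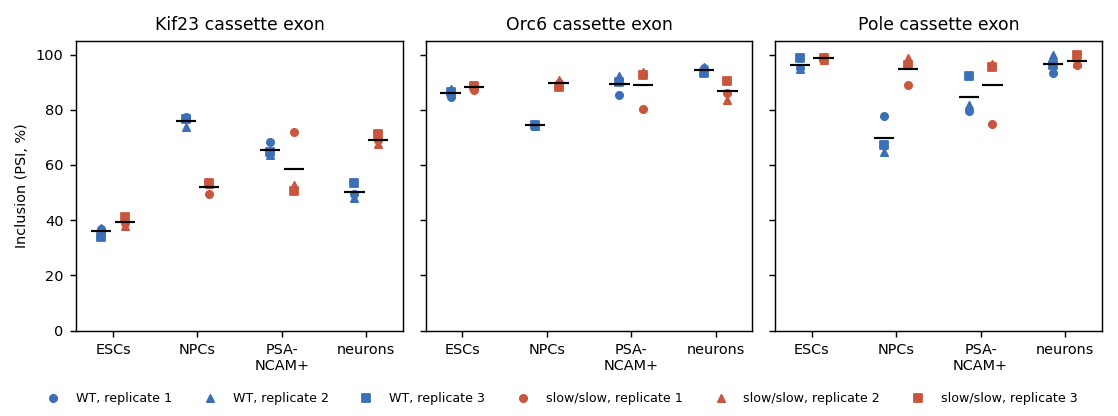
Inclusion (PSI, percent, from 0 to above 100 on the axis) of the cassette exons of Kif23, Orc6 and Pole in every library by stage, with WT in blue, slow/slow in red, the replicate shown by the marker and the mean of 3 by the black line. For Kif23 the slow/slow libraries lie below the WT libraries in NPCs (52.0% against 75.9% on average) and above them in neurons (69.2% against 50.4%).

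Among other genes of replication, the calls were nearly all higher in slow/slow cells. Of 31 of them, 9 were higher and 1 lower in ESCs, 12 and 1 in NPCs, 16 and 0 at the PSA-NCAM+ stage, and 11 and 0 in neurons. The higher calls were 29.0, 38.7, 51.6 and 35.5% of the list, against 18.5, 29.3, 28.6 and 23.4% of all genes, and in PSA-NCAM+ cells they numbered 21 with the block and 25 without the libraries numbered 1, where Clspn stood at 1.05. Their median changes, from ESCs to neurons, were 0.24, 0.23, 0.34 and 0.25, beside the medians over all genes of -0.02, 0.01, -0.01 and -0.06. Among the largest rises were those of Tipin, a fork protection factor, by 0.65 in ESCs and 0.76 in NPCs, of Clspn, the checkpoint mediator Claspin, by 0.87 at the PSA-NCAM+ stage, and of Pole2 and Cdc7, a polymerase subunit and the kinase that fires origins, by 0.74 and 0.58 in neurons. Tyms, thymidylate synthase, measured 43.1, 39.2 and 41.9 CPM in WT and 99.4, 99.9 and 99.3 CPM in slow/slow NPCs and rose by 1.27 ± 0.29 (SE, FDR 0.00106). The gene lower in ESCs was Uhrf1, which links replication to DNA methylation, at -0.67 ± 0.21 (SE, FDR 0.0164), and the gene lower in NPCs was Pold2, a subunit of polymerase delta, at -0.28 ± 0.12 (SE, FDR 0.0483).

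Other mitotic genes were called in both directions before the neuron stage. Of 38, 7 were higher and 3 lower in slow/slow ESCs, 3 and 11 in NPCs, 4 and 6 at the PSA-NCAM+ stage, and 28 and 0 in neurons, and 24 of the 38 had an upward difference in the genotype effect between NPCs and neurons, 63.2% against 24.7% of all genes. The higher calls in ESCs (18.4%) and the lower calls in NPCs (28.9%) were near the 18.5% and 27.4% of all genes, and the higher calls in neurons (73.7%) stood against 23.4%. In PSA-NCAM+ cells 7 were higher and 10 lower with the block, and 14 and 6 without the libraries numbered 1. The medians of the 38 were 0.036, -0.061, 0.054 and 0.55. In NPCs Cdc25c, a phosphatase that activates Cdk1, measured 40.8, 41.2 and 40.7 CPM in WT and 19.4, 20.5 and 19.4 CPM in slow/slow cells and fell, at -1.05 ± 0.09 (SE, FDR 1.4e-08), as did Pttg1, securin, at -0.88 ± 0.12 (SE, FDR 4.14e-06). In neurons Cdc25b, a related phosphatase, measured 24.4, 29.7 and 27.5 CPM in WT and 102, 112 and 109 CPM in slow/slow cells, a change of 1.98 ± 0.10 (SE, FDR 1.73e-11). Racgap1, the partner of Kif23 in the central spindle, rose by 1.44 in neurons and fell in ESCs, at -0.52, where Cdc25b also fell, at -0.60, and Smc4, a condensin subunit, rose by 0.52. Ckap2 rose by 0.56 in NPCs, and in PSA-NCAM+ cells the kinetochore gene Spc24 and the kinesin gene Kif15 rose by 0.57 and 0.51 while Pttg1 and Espl1, separase, stood at -0.95 and -0.65. The chromosomes of these genes are not given here. How far differences of whole chromosomes, as on chromosomes 8 and 15, enter their values was not tested.

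Regulators of the set were tested in the same way. Of the 16 E2F, B-Myb and Foxm1 regulators, 9 were higher and 2 lower in ESCs, 9 and 5 in NPCs, 10 and 3 at the PSA-NCAM+ stage, and 12 and 0 in neurons. The higher calls were 56.3, 56.3, 62.5 and 75% of the list, against 18.5, 29.3, 28.6 and 23.4% of all genes, and the lower ones in the first 3 stages 12.5, 31.3 and 18.8%, against 21.9, 27.4 and 28.1%. Median changes were 0.35, 0.44, 0.53 and 0.64. Tfdp1, the dimer partner of E2F factors, which lies on chromosome 8 in RefSeq, rose by 1.29 ± 0.12 (SE, FDR 8.03e-08) in ESCs, 1.42 ± 0.12 (SE, FDR 1.4e-08) in NPCs and 1.04 ± 0.12 (SE, FDR 6.05e-07) in PSA-NCAM+ cells. Mybl2, which encodes B-Myb, measured 1120.4, 1211 and 1116 CPM in WT and 331, 289 and 286 CPM in slow/slow NPCs, a fall at -1.93 ± 0.11 (SE, FDR 5.88e-11), and it stood at -0.53 in ESCs and -1.58 in PSA-NCAM+ cells. E2f1 fell in ESCs, at -0.37 ± 0.10 (SE, FDR 0.00573), and rose in neurons, at 1.36 ± 0.10 (SE, FDR 2.15e-09). E2f8, a repressor of the family, rose by 0.94 in ESCs and 1.30 in neurons, E2f4 by 1.14 in NPCs and E2f5 by 1.09 in PSA-NCAM+ cells, where Lin37, of the DREAM complex, stood at -0.57, and E2f2 stood at -0.69 in NPCs. Apart from Tfdp1, the chromosomes of the regulators and of the genes in the lists below are not given. The part of whole-chromosome differences in their values was not tested.

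Of the 9 G1 cyclins and kinases, 5 were higher and 0 lower in ESCs, 5 and 2 in NPCs, 5 and 1 at the PSA-NCAM+ stage, and 2 and 3 in neurons. The 5 higher calls were 55.6% of the list, above the 18.5 to 29.3% of all genes at those stages, and the 2 in neurons 22.2%, near the 23.4%. The medians over the 9 were 0.38, 1.06, 0.65 and 0.13. Ccnd2, cyclin D2, measured 15.6, 17.9 and 14.3 CPM in WT and 100.4, 120.1 and 118 CPM in slow/slow NPCs and rose by 2.82 ± 0.11 (SE, FDR 1.01e-12), and by 1.91 in PSA-NCAM+ cells. Ccnd1, cyclin D1, rose by 1.19 in ESCs, 2.35 in NPCs and 1.56 in PSA-NCAM+ cells. Myc, counted with this list, rose by 1.17 in ESCs and fell in PSA-NCAM+ cells, at -1.23, and in neurons, at -1.01. The other changes named by size were those of Ccnd3 (-1.38) and Cdk6 (-0.51) in NPCs and of Cdk2 (0.44), Mycn (0.40) and Cdk6 (-0.64) in neurons.

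Of the 9 CDK inhibitors and pocket proteins with counts, 1 was higher and 1 lower in ESCs, 0 and 3 in NPCs, 2 and 2 at the PSA-NCAM+ stage, and 3 and 3 in neurons. These were 0 to 33.3% of the list in either direction, against 18.5 to 29.3% of all genes. Their medians were 0.064, -0.18, 0.017 and 0.21. The pocket protein gene Rbl1 rose by 0.67 in ESCs, 0.92 in PSA-NCAM+ cells and 1.05 in neurons, and Rb1 fell in ESCs, at -0.55. Cdkn1a, p21, fell in NPCs, at -1.11 ± 0.22 (SE, FDR 0.000308), and in PSA-NCAM+ cells, at -0.69 (-1.12 without the libraries numbered 1), and Cdkn2c fell in NPCs, at -0.55. Cdkn1c, p57, fell in PSA-NCAM+ cells, at -1.22, where Cdkn1b, p27, rose by 0.74. In neurons Cdkn1c rose by 1.23 ± 0.14 (SE, FDR 4.31e-07), while Cdkn2a, the gene of p16 and p19, and its neighbour Cdkn2b fell, at -1.74 and -1.18.

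Of the 13 checkpoint and p53 genes, 0 were higher and 3 lower in ESCs, 4 and 2 in NPCs, 2 and 1 at the PSA-NCAM+ stage, and 4 and 3 in neurons. The 3 lower in ESCs (23.1%) and the 4 higher in NPCs (30.8%) were near the 21.9% and 29.3% of all genes. In PSA-NCAM+ cells 3 were higher and 3 lower both with the block and without the libraries numbered 1. Medians of -0.28, 0.11, 0.054 and -0.0073 went with these counts. Chek1, the replication checkpoint kinase, rose by 0.45 in NPCs, 0.77 at the PSA-NCAM+ stage and 0.82 in neurons, and Wee1, which inhibits Cdk1, by 0.61 in neurons. Trp53 rose by 0.61 in NPCs. Among genes that p53 activates, Gadd45a fell in ESCs, at -1.04, and NPCs, at -1.07, Mdm2 in NPCs, at -0.77, and PSA-NCAM+ cells, at -0.72 (-1.08 without the libraries numbered 1), and Sesn2 in ESCs, at -0.75, and neurons, at -0.94. Ccng1 fell in neurons, at -1.04. In PSA-NCAM+ cells it was called at 0.29, and without the libraries numbered 1 it stood at 0.061 (FDR 0.482) and was not called. The other genes named from these lists in PSA-NCAM+ cells were still called without those libraries.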

How the data were processed

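RNA had been sequenced on an Illumina HiSeq from poly(A)+ TruSeq libraries, and the authors mapped paired-end reads to mm9. The deposited counts per gene came from vast-tools, and whether they were counted by strand was not stated. The deposited RPKM values were used as the authors' mean of each group, and the deposited percent spliced in (PSI) as the authors made it. Quality filters followed the study's methods, except that the filter on junction balance was not applied to microexons. Columns of the authors' own comparisons (log2 fold changes with FDR, and group PSI estimates with their calls) were not used.

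Replicates came from 3 independent differentiation experiments, per the study's methods, and for ESCs the p-values measure only the spread between the deposited samples. Genes were filtered with filterByExpr, scaled by TMM and fitted over the 24 samples and 8 groups with edgeR 4.0.16 (R 4.3.3), whose quasi-likelihood test with Benjamini-Hochberg adjustment gave the FDR, over 16627 of 21553 genes with counts. The script was tested on simulated data. DESeq2 1.42.0, other scalings, no filter, 2 groups alone, a chromosome offset, a replicate block and leaving out each library were the alternatives. Counts of an exon or intron needed over 10 PSI points and no overlap. Introns needed 15 reads.

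The 44 genes, their roles, the pathway and marker lists and the genes named were chosen with earlier results of these data known. Named were 13 genes throughout, the 4 largest called rises and falls per genotype comparison, the 2 per stage comparison and genotype in each direction, the 3 per interaction and direction, the 3 highest and 3 lowest in neurons, the chromosome 8 genes, and the 2 largest called changes in each direction per pathway list. Same-numbered WT and slow/slow samples deviated together in PSA-NCAM+ cells (r = 0.54, 0.45 and 0.40) and not at the other stages (r between -0.08 and 0.07), so the numbers were taken as pairs in PSA-NCAM+ cells only. There WT 2 and slow/slow 3 (0.40) and WT 3 and slow/slow 2 (0.24) also deviated together, both apart from the libraries numbered 1. Between stages, same-numbered slow/slow NPC and PSA-NCAM+ samples had r = 0.24, 0.15 and 0.09. In the other steps r lay between -0.05 and 0.07. The stage comparisons in the Results were fitted without pairs. Markers Map2, Sox1 and Tfcp2l1 and 1 CDK inhibitor gene were not used here. The values of 1 other replication gene that the rule named are not reported here.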

Additional observations from a re-analysis of the deposited data

Results flagged for a closer look

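By the interaction test the effect of genotype differed for 2 genes of the set between ESCs and NPCs and for 12 between NPCs and neurons. In the first step 0% of the set differed upward and 4.55% downward, against 13.6% and 11% of all genes. In the second these were 20.5% and 6.82%, against 24.7% and 30.4%, so no share of the set was above that of all genes. The genes with the 3 largest differences in each direction follow. Between ESCs and NPCs the log2 change between slow/slow and WT cells moved by -0.76 for Ccnb2, which was higher in slow/slow ESCs and was not called in NPCs, and by -0.43 for Aurkb, which was called lower in slow/slow NPCs. Between NPCs and neurons it moved by 1.26 for Ccnb2, 1.00 for Aurkb and 0.94 for Bub1b, all of which were higher in the 3 slow/slow neuron libraries than in the 3 WT ones and lower in the 3 slow/slow NPC libraries than in the WT ones. Over the same step it moved by -1.61 for Ccne2, by -0.91 for Ccne1 and by -0.83 for Rfc3, which were higher in all slow/slow NPC libraries than in the WT ones. In neurons Ccne1 was lower in all slow/slow libraries, and Ccne2 and Rfc3 overlapped between the genotypes. No cause of these differences was tested.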

How the results depend on the processing

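Of 1404 refits of 105 named changes, 1215 kept direction and side of the threshold, 109 lost it, 51 gained it and 29 changed sign. At 2-fold, calls numbered 1, 2, 1 and 2 between genotypes from ESCs to neurons, 2 and 0 from ESCs to NPCs by genotype (WT first), 1 and 0 from NPCs to PSA-NCAM+ cells, and 0 and 2 in the interactions. With 2 groups alone they numbered 25, 35, 1 and 36 between genotypes, 34 from ESCs to NPCs and 0 from NPCs to PSA-NCAM+ cells in slow/slow cells. Without the filter the ESC to NPC interaction had 1, and upper-quartile scaling gave the NPC to neuron interaction 20. Without the PSA-NCAM+ libraries numbered 1 the genotype comparison had 32. Upper-quartile scaling moved the median level to 113% for slow/slow ESCs, to 77.9% for WT and 93.2% for slow/slow NPCs and to 24.8% for WT neurons, and DESeq2's scaling to 88.5% in slow/slow NPCs. At 30 reads 0 introns were counted in PSA-NCAM+ cells.

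Leaving out 1 library gave 7 to 11 calls in ESCs, 10 to 12 in NPCs, 8 to 35 in PSA-NCAM+ cells and 12 to 22 in neurons. It gave 25 to 28 and 17 to 19 from ESCs to NPCs in WT and slow/slow cells, 10 to 26 and 5 to 19 from NPCs to PSA-NCAM+ cells, 41 to 42 and 43 to 43 from NPCs to neurons, and 1 to 2 and 11 to 15 in the interactions. A replicate block gave 18 calls in ESCs and 25 (19 higher, 6 lower) in NPCs, where same-numbered samples share only a number, 26 in PSA-NCAM+ cells, 32 in neurons and 14 in the NPC to neuron interaction. In PSA-NCAM+ cells the assumed pairing added calls for Pola1, Mcm7, Rfc5, Top2a and Cdc6 (higher) and Orc1, Cdc20 and Cdk1 (lower) and took none away.

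With the chromosome offset the sign changed for Mcm2 in ESCs (0.0025), Cdt1 in ESCs, NPCs and PSA-NCAM+ cells (-0.34, -0.32 and -0.094), Gins4 at the 4 stages (-0.091, -0.086, -0.11 and -0.081), Orc6 in neurons (-0.17), Ccna2 in NPCs (-0.058) and Ccne2 in neurons (0.052). Ccna2 in NPCs was -0.023 with DESeq2's scaling, -0.024 with its Wald test, -0.034 with upper quartiles and -0.013 with 2 groups. Ccne2 in neurons was 0.11 with upper quartiles and 0.043 with 2 groups. Without single libraries, values ranged across 0 for Ccnb1 (-0.032 to 0.021) and Ccna2 (-0.015 to 0.046) in NPCs, for Cdk1 (-0.33 to 0.037), Ccnb1 (-0.16 to 0.22) and Ccne1 (-0.37 to 0.077) in PSA-NCAM+ cells, and for Cdk1 (-0.0016 to 0.16) and Ccne2 (-0.15 to 0.024) in neurons. Without both PSA-NCAM+ libraries 1, Ccnb1 was 0.080. The causes were not tested.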
